A study of Mus musculus with 8 samples.

Results

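Cytochrome c oxidase, complex IV, is the last enzyme of the mitochondrial respiratory chain, and 10 of its nuclear subunit genes are described here among 37982 genes listed in the authors' deposited table. They were taken by gene symbol: Cox4i1, Cox4i2, Cox5a, Cox5b, Cox6a1, Cox6a2, Cox7a1, Cox7a2, Cox8a and Cox8b, each found once. RNA was extracted from the heart ventricles, with the atria trimmed off, of C57BL/6 mice aged 7 days. The labels name 3 triple mutant, 3 double mutant and 2 wild type samples. As known from the study and not from the labels, double mutants carried altered alleles of Mkl2, a coactivator of serum response factor, and of Myh7, the beta myosin heavy chain, and triple mutants carried an altered allele of Nkx2-5, a cardiac homeodomain factor, in addition. The labels give neither the zygosity nor the sex of the pups, nor say whether animals were pooled. Expression was given as 1 FPKM (fragments scaled to transcript length and to library size) per gene and group, so no value per pup can be shown and the depth is unknown.

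The enzyme passes electrons from cytochrome c to oxygen and pumps protons across the inner mitochondrial membrane. Its catalytic core is made by the mitochondrial genome, and nuclear subunits surround and adjust it. Subunits 6A, 7A and 8 each exist as an isoform of heart and skeletal muscle (Cox6a2, Cox7a1, Cox8b) and a broadly expressed isoform (Cox6a1, Cox7a2, Cox8a), and in mouse heart the muscle forms become more prominent around and after birth. Subunit 4 has a main isoform, Cox4i1, and Cox4i2, best known from lung and from responses to low oxygen, while Cox5a and Cox5b have no such partner.

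Of the 10 genes, 8 were tested in every comparison. Against wild type, 6 of the 8 had a positive log2 fold change in the triple mutant and 7 of the 8 in the double mutant, beside 49.6% and 49.5% of all tested genes, but few of these differences passed the authors' test. A deposited q-value under 0.05 is the threshold for a call. In the double mutant against wild type, 3 of the 8 tested genes were called, all higher: Cox5b, Cox8b and Cox5a. In the same comparison 2.65% of all tested genes were called, 1.89% as higher. In the triple mutant against wild type only Cox5a of the 8 was called, as higher, beside 1.52% of all tested genes called and 1.16% called higher. In the triple mutant against the double mutant only Cox8b of the 8 was called, as lower, beside 1.25% of all tested genes called and 0.547% called lower. The median log2 fold change of the 8 genes was 0.31 for triple mutant against wild type, -0.16 for the triple against the double mutant and 0.32 for double mutant against wild type, and the median over all tested genes was within 0.01 of 0 in each. The comparisons share groups, so their values are not independent of each other.

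**Figure D1:**
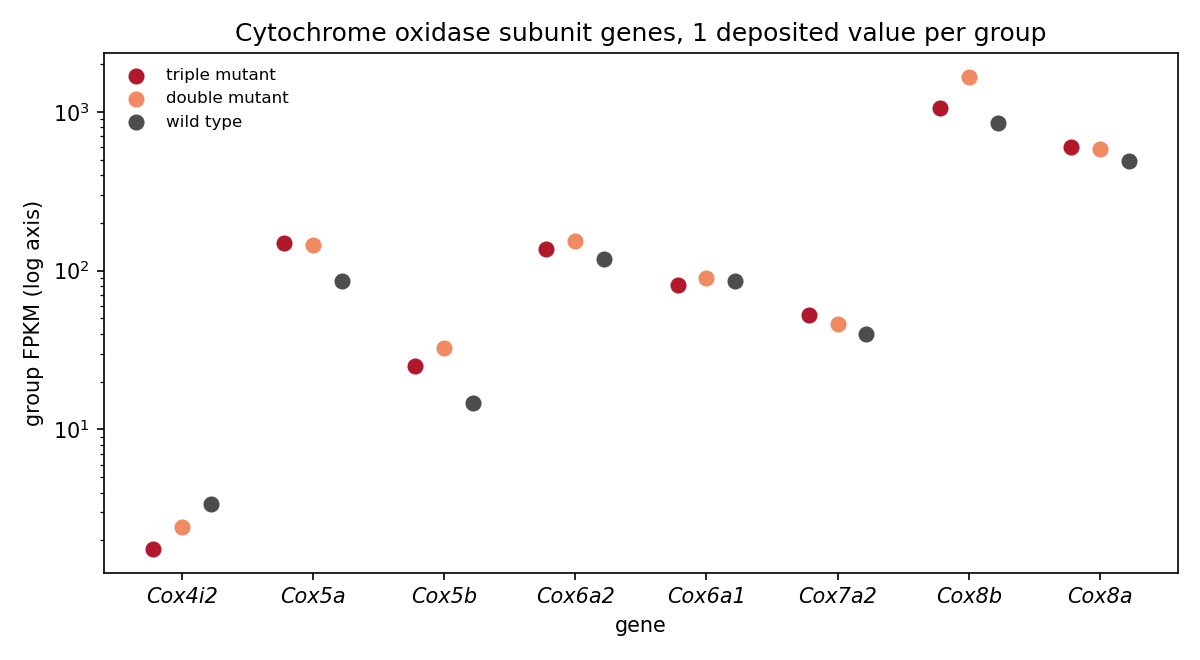
FPKM (log axis) of the 8 subunit genes with an estimate in every group, 1 point per group for triple mutant, double mutant and wild type, with no error because the file holds no values per sample. Cox8b is the highest gene in every group, at 1052 FPKM in the triple mutant, 1666 in the double mutant and 848 in wild type.

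Both members left untested are listed at or near 0. Cox4i1 is listed at 0 in all 3 groups under a mark for too many fragments, which is a failed estimate and not a low level, and the listed region (mm9 chr8:122434260-126869624) is shared with 159 other genes. Cox7a1 (mm9 chr7:30969190-30971047) is listed in the authors' deposited table at 0 in the triple mutant, 1.45 FPKM in the double mutant and 0 in wild type, under a mark for too few fragments to test. Cox7a1 is known as an abundant transcript of adult mouse heart, so a listing at 0 may be a failed estimate, and it is not read as absence. With these gaps, 2 of the 4 isoform pairs could be compared.

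The subunit 8 pair held the highest levels, and of the pairs compared only this one had a called gene, Cox8b. Cox8b (ENSMUSG00000025488, mm9 chr7:148084842-148086345) encodes the muscle isoform of subunit 8, and is a working gene in mouse although its human counterpart is not. It stood in the authors' deposited table at 1052 FPKM in the triple mutant, 1666 FPKM in the double mutant and 848 FPKM in wild type. The double mutant value was thus above both others. Cox8b was 1.97-fold higher in the double mutant than in wild type in the authors' deposited table (log2 fold change 0.97, standard error 0.245, q = 0.0066). In the authors' deposited table it was 1.58-fold lower in the triple than in the double mutant (log2 fold change -0.66, standard error 0.242, q = 0.0066). For the triple mutant against wild type the authors' deposited table gives a log2 fold change of 0.31 (standard error 0.234, q = 0.269), which did not pass. A q-value of 0.0066, here and below, is the lowest deposited for any gene, so calls at it cannot be ranked. These standard errors are the deposited log2 fold change divided by the deposited statistic. They are implied by that statistic and are not a measured spread between pups, which the file does not give. The deposited p-values correspond to normal scores 1.76 times the statistic (median over tests of intermediate p-value). The p-values thus imply smaller errors than those printed here and below.

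Cox8a (ENSMUSG00000035885, mm9 chr19:7289648-7292106), the broadly expressed isoform of the same subunit, stood in the authors' deposited table at 602 FPKM in the triple mutant, 583 FPKM in the double mutant and 486 FPKM in wild type. None of its differences passed, with q = 0.268 for triple mutant against wild type, 0.960 for the triple against the double mutant and 0.409 for double mutant against wild type in the authors' deposited table. Cox8b made up 63.6% of the summed Cox8b and Cox8a FPKM in the triple mutant, 74.1% in the double mutant and 63.5% in wild type. By these group values the double mutant had the larger muscle isoform share, and the triple mutant stood near wild type.

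On the log2 scale the ratio of Cox8b to Cox8a was 0.71 higher in the double mutant than in wild type, with a standard error of 0.34 if the errors of both genes are independent. It was 0.71 lower in the triple than in the double mutant (change -0.71, standard error 0.34), and the change was 0.00 (standard error 0.33) between triple mutant and wild type. No p-value was made for these ratios, because the file holds no values per sample. Their errors are built from the wide implied errors described above. The sum of the pair was 1654 FPKM in the triple mutant, 2248 FPKM in the double mutant and 1334 FPKM in wild type. By these group values the triple mutant's sum stood above wild type (log2 change 0.31) at a similar isoform share, though neither gene was called in that comparison. In the double mutant (log2 change 0.75 over wild type) most of the added FPKM was Cox8b. The sums have no error and were not tested.

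**Figure D2:**
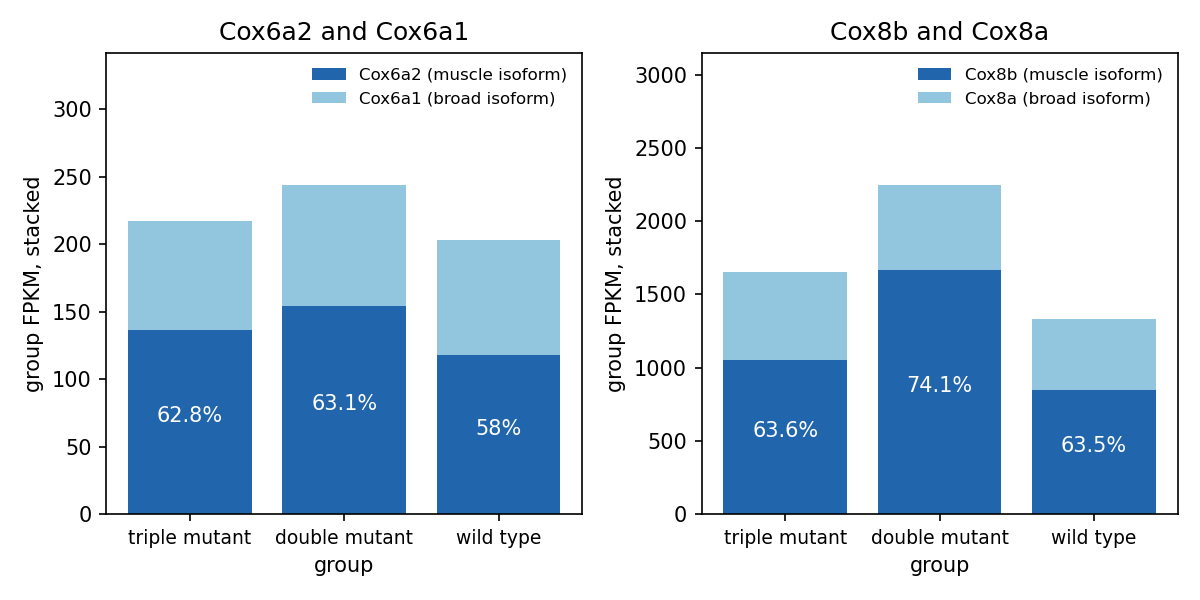
Stacked group FPKM of the muscle isoform (dark) and the broad isoform (light) of subunits 6A and 8 in triple mutant, double mutant and wild type, with the muscle isoform's percent of the pair printed in each bar and no error, as the file gives 1 value per group. The Cox8b share is 74.1% in the double mutant against 63.5% in wild type, while the Cox6a2 share is 63.1% in the double mutant against 58.0% in wild type.

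The subunit 6A pair differed less. Cox6a2 (ENSMUSG00000030785, mm9 chr7:135297890-135367330), the muscle isoform, stood in the authors' deposited table at 137 FPKM in the triple mutant, 154 FPKM in the double mutant and 118 FPKM in wild type. Its listed region is shared with the integrin gene Itgad, so the counting could have mixed their reads. Its largest difference, a log2 fold change of 0.39 for double mutant against wild type in the authors' deposited table, did not pass (standard error 0.254, q = 0.169). Cox6a1 (ENSMUSG00000041697, mm9 chr5:115795651-115798990), the broadly expressed isoform, was the flattest member, at 80.8 FPKM in the triple mutant, 90.0 FPKM in the double mutant and 85.5 FPKM in wild type in the authors' deposited table. Its q-values there lay between 0.808 and 0.939.

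Cox6a2 held 62.8% of the pair in the triple mutant, 63.1% in the double mutant and 58.0% in wild type. The log2 ratio of Cox6a2 to Cox6a1 was 0.29 higher in the triple mutant than in wild type and 0.31 higher in the double mutant than in wild type, each with a standard error of 0.37, and the change between triple and double mutant was -0.02 (standard error 0.37). These changes had no test, and no call of either gene stands behind them. The implied errors are wide, since the deposited p-values correspond to scores 1.76 times the statistic. That figure is the median over tests of intermediate p-value in all comparisons together, with the smallest and the largest p-values left out. Unlike the Cox8b share, the Cox6a2 share was at similar values in both mutants, though the difference between the pairs was not tested.

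Cox5a and Cox5b, whose proteins face the mitochondrial matrix, were the other members with calls. Cox5a (ENSMUSG00000000088, mm9 chr9:57369039-57390994) stood in the authors' deposited table at 149 FPKM in the triple mutant, 144 FPKM in the double mutant and 86.6 FPKM in wild type. Both mutants stood above wild type by similar amounts. Cox5a rose by a log2 fold change of 0.78 in the triple mutant (standard error 0.352, q = 0.0184) and 0.74 in the double mutant (standard error 0.346, q = 0.0342), each against wild type, in the authors' deposited table. Between triple and double mutant its log2 fold change was 0.04 (standard error 0.307, q = 0.972) in the authors' deposited table. Its region is shared with 2 other listed genes, 2310046O06Rik and Gm17596, so the counting could have mixed their reads.

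Cox5b (ENSMUSG00000061518, mm9 chr1:36748332-36750230) stood in the authors' deposited table at 25.2 FPKM in the triple mutant, 32.6 FPKM in the double mutant and 14.7 FPKM in wild type. It had the largest change of all members, a 2.23-fold rise in the double mutant over wild type in the authors' deposited table (log2 fold change 1.15, standard error 0.413, q = 0.0066). For the triple mutant against wild type the authors' deposited table gives a log2 fold change of 0.78 (standard error 0.41, q = 0.0719), which passes only the authors' own mark of q under 0.1. At that looser mark 2.75% of all tested genes and 2 of the 8 members were called in this comparison. At a q-value under 0.01 it was 0.554% of all genes and none of the 8, of which 6 had an unadjusted Cuffdiff p-value under 0.05. Cox4i2 is among these 6 as lower. The share of all tested genes at that p-value was not counted, here or for the lists below, so no excess can be read from such counts. Between triple and double mutant the log2 fold change of Cox5b was -0.37 (standard error 0.371, q = 0.513) in the authors' deposited table.

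Reads of Cox5b may be split with a near copy. Of the 50-base stretches of its longest coding transcript in GENCODE M21, 25.9% also occur in Gm11273 on chromosome 13. Gm11273 stood at 16.3 FPKM in the triple mutant, 17.4 FPKM in the double mutant and 7.89 FPKM in wild type in the authors' deposited table, with no call (q = 0.118 for triple mutant against wild type, 0.963 for the triple against the double mutant and 0.0889 for double mutant against wild type). The sum of both genes was 41.5 FPKM in the triple mutant, 50 FPKM in the double mutant and 22.5 FPKM in wild type, and its log2 change was 0.88 for triple mutant against wild type, -0.27 for the triple against the double mutant and 1.15 for double mutant against wild type. The changes of Cox5b alone were 0.78, -0.37 and 1.15 in these comparisons. Cox6a1 shared 12.3% and Cox5a 3.36% of such stretches with other transcripts. The remaining members shared none, and no isoform shared a stretch with its partner.

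Cox7a2 and Cox4i2 had no call. Cox7a2 (ENSMUSG00000032330, mm9 chr9:79603048-79607660), the broad isoform of subunit 7A, stood in the authors' deposited table at 52.2 FPKM in the triple mutant, 46.2 FPKM in the double mutant and 39.6 FPKM in wild type. Its log2 fold change for triple mutant against wild type was 0.40 in the authors' deposited table (standard error 0.283, q = 0.236). Cox4i2 (ENSMUSG00000009876, mm9 chr2:152579909-152590773) was the lowest tested member, at 1.76 FPKM in the triple mutant, 2.43 FPKM in the double mutant and 3.40 FPKM in wild type in the authors' deposited table. It was the one member below wild type in both mutants, with a log2 fold change of -0.95 in the triple mutant (standard error 0.766, q = 0.292) and -0.48 in the double mutant (standard error 0.674, q = 0.689) in the authors' deposited table.

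**Figure D3:**
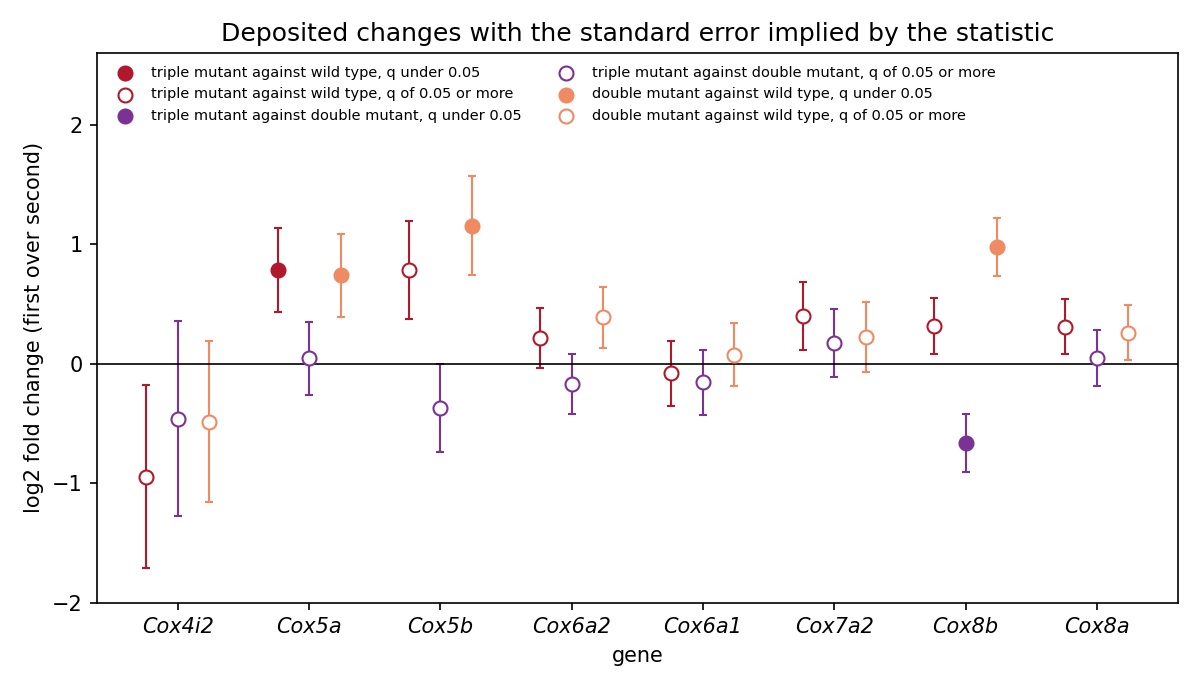
Deposited log2 fold change of 8 subunit genes in the 3 comparisons, with bars of 1 standard error implied by the authors' statistic; filled points have a q-value under 0.05 and open points do not. Cox8b is filled above 0 for double mutant against wild type (0.97) and below 0 for the triple against the double mutant (-0.66), whereas Cox5a is filled above 0 for both mutants against wild type.

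The order of levels was nearly the same in the groups. Cox8b was highest, then Cox8a, and Cox4i2 was lowest in each. Cox5a and Cox6a2 changed places: Cox5a was above Cox6a2 by 0.12 on the log2 scale in the triple mutant, and Cox6a2 was above Cox5a by 0.09 in the double mutant and by 0.45 in wild type. In wild type Cox5a exceeded Cox6a1 by only 0.02 on that scale. No error is given for a gap between genes within a group, since the deposited statistics concern a gene's change between groups. The order of neighbours at gaps of 0.02 to 0.12 is therefore not read. Cox8a exceeded the next gene by 2.02, 1.92 and 2.04 in triple mutant, double mutant and wild type, with no error given either. FPKM is scaled to transcript length, and estimates for transcripts this short (360 nucleotides for Cox8b, 865 for the longest, of Cox5b) depend on how fragment length was modelled.

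Promoters of 4 members are shown because Cox8b, Cox5a and Cox5b were called in the double mutant, while Cox8a, the partner of Cox8b, was not. The sequences are those of RefSeq on GRCm38.p6, another build than the mm9 of the files, and run 5′ to 3′ on the gene's strand over 250 bases before to 50 bases after the annotated start. Capitals mark matches on either strand to any of the motifs searched. The E box of muscle bHLH factors was searched as CANNTG. The core of Nkx2-5 sites was searched as AAGTG, which can overlap an E box. A site of ETS factors was searched as CCGGAAG. The TATA box was searched as TATAAA, and this motif was added after the sequences were seen.
Cox8b: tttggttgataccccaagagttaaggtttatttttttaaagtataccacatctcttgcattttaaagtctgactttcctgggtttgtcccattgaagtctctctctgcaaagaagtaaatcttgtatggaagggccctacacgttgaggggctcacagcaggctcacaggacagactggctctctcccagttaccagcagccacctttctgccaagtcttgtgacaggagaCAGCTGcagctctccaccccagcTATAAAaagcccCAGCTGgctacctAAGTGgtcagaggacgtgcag
Cox8a: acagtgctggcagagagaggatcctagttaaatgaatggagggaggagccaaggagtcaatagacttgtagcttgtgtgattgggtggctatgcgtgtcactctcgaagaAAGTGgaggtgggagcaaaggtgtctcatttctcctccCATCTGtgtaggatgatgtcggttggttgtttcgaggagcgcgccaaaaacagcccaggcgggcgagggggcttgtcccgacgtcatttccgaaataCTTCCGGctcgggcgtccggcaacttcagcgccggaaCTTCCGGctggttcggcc
Cox5a: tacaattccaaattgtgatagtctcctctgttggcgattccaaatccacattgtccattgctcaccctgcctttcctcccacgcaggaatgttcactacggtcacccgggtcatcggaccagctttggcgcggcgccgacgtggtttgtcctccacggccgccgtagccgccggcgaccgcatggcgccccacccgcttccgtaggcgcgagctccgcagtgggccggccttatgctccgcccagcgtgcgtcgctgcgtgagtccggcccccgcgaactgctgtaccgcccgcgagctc
Cox5b: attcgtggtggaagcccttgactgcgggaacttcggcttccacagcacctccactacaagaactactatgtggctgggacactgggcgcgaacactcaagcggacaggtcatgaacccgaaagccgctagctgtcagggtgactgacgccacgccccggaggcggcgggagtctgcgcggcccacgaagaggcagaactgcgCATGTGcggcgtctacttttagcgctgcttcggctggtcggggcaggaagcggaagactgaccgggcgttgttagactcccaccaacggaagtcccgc
They lie at chr7:140900397-140900696 (minus strand) for Cox8b, chr19:7217567-7217866 (minus strand) for Cox8a, chr9:57520982-57521281 (plus strand) for Cox5a and chr1:36691237-36691536 (plus strand) for Cox5b.

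The Cox8b window had 48.3% G and C and 2 CpG steps, against 56.0% and 19 for Cox8a, 65.0% and 35 for Cox5a and 62.3% and 27 for Cox5b. The medians over all windows were 52.7% and 7, and the window of Cox7a1, another muscle isoform, had 53% and 7. Cox8b held CANNTG at positions -19 and 17 from the annotated start, TATAAA at position 5 and AAGTG at position 30. Cox8a held CCGGAAG, read on the other strand, at positions -5 and 33, CANNTG at -102 and AAGTG at -140. Cox5b held CANNTG at -48, and Cox5a held none of the motifs searched. Promoter windows were found for 7 of the 10 members. Among these 7, CANNTG occurred in 5, AAGTG in 5, CCGGAAG in 2 and TATAAA in 1, against 72.3%, 46.4%, 8.86% and 13.6% of all 32851 windows. The core GCATGC of NRF1 sites occurred in 1 of the 7 (Cox6a1) against 7.93% of all windows, and the MEF2 and CArG boxes in none against 3.19% and 1.63%. A match is a description of letters and says nothing of binding.

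Of 10 further nuclear genes, subunits of the enzyme and relatives of subunits, 7 were tested in the triple mutant against wild type. Of these 7, 2 were called higher and 1 lower, the relative Cox7a2l. In the double mutant against wild type 7 were tested, with 2 called higher and none lower. In the triple against the double mutant 6 were tested and none was called by Cuffdiff, with 2 at an unadjusted p-value under 0.05. Cox6b1, a subunit facing the intermembrane space, stood in the authors' deposited table at 536 FPKM in the triple mutant, 456 FPKM in the double mutant and 286 FPKM in wild type. It rose by 0.91 in the triple mutant and 0.68 in the double mutant on the log2 scale against wild type, with q = 0.0066 for both in the authors' deposited table. Ndufa4, first assigned to complex I and now placed in complex IV, rose by 0.70 in the triple mutant (q = 0.0184) and 1.18 in the double mutant (q = 0.0066) on that scale in the authors' deposited table. Cox7a2l, a relative of subunit 7A that is not read here as a subunit, was lower in the triple mutant than in wild type. Its log2 fold change was -0.50 in the authors' deposited table (q = 0.0214). It stood there at 99.6 FPKM in the triple mutant, 128 FPKM in the double mutant and 140 FPKM in wild type. Cox7b, the highest of these genes in wild type, had a log2 fold change of 0.58 in the triple mutant (q = 0.698) and 0.78 in the double mutant (q = 0.493) against wild type in the authors' deposited table, with errors of 0.78 and 0.785. Cox6c has no estimate in either mutant, and the mitochondrially encoded subunits mt-Co1, mt-Co2 and mt-Co3 have none in any group.

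Assembly factors of the enzyme, which insert haem and copper or guide its core subunits, numbered 28, all tested. In each mutant against wild type 1 was called higher and none lower, the factor Coa7 (listed as 2010305A19Rik), with a log2 fold change of 0.65 in the triple mutant and 0.66 in the double mutant, with q = 0.0114 for both in the authors' deposited table. Between triple and double mutant none was called by Cuffdiff, and 2 had an unadjusted p-value under 0.05. The median log2 fold change of the assembly factors was 0.17 for triple mutant against wild type, -0.09 for the triple against the double mutant and 0.28 for double mutant against wild type. The copper chaperone Cox17, the highest of them in wild type, stood in the authors' deposited table at 177 FPKM in the triple mutant, 227 FPKM in the double mutant and 158 FPKM in wild type, with q-values of at least 0.929. Fam36a, the factor also named Cox20, and 2310016M24Rik, also named Cox14, were next in wild type and had no call either.

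The neighbouring complexes had similar medians. For double mutant against wild type the median log2 fold change was 0.39 over 9 complex III genes (3 called, all higher), 0.41 over 12 tested ATP synthase genes (2 called, both higher) and 0.32 over 36 complex I genes (6 called, all higher), beside 0.32 for the 8 cytochrome oxidase members. For triple against double mutant the medians were -0.13 for complex III, -0.11 for ATP synthase and -0.11 for complex I, beside -0.16 for the members. In that comparison the ATP synthase gene Atp5j2 (log2 fold change -0.77, q = 0.0066) and the complex I gene Ndufc2 (-0.46, q = 0.0321) were called lower in the authors' deposited table, as Cox8b was. For triple mutant against wild type the medians were 0.26 for complex III, 0.24 for ATP synthase and 0.22 for complex I, beside 0.31 for the members. No difference between these lists was tested.

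The called complex III genes were Uqcr11, Uqcr10 and Uqcrb, small subunits of the enzyme that reduces cytochrome c, with log2 fold changes of 0.77, 0.74 and 0.70 in the double mutant over wild type (q = 0.0114, 0.0066 and 0.0150) in the authors' deposited table. Atpif1, which inhibits ATP hydrolysis by ATP synthase, stood in the authors' deposited table at 686 FPKM in the triple mutant, 708 FPKM in the double mutant and 402 FPKM in wild type. It rose over wild type in both mutants, as Cox5a did, by 0.77 in the triple mutant and 0.82 in the double mutant on the log2 scale (q = 0.0066 for both) in the authors' deposited table. Among complex I genes, Ndufa10 and Ndufs4 were called higher in both mutants over wild type. Ndufa10 stood at 153 FPKM in the triple mutant, 173 FPKM in the double mutant and 106 FPKM in wild type, and Ndufs4 at 126, 128 and 86.2 FPKM in triple mutant, double mutant and wild type, in the authors' deposited table. Cycs, the somatic cytochrome c that feeds electrons to the oxidase, had no call, at 163 FPKM in the triple mutant, 183 FPKM in the double mutant and 141 FPKM in wild type in the authors' deposited table.

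**Figure D4:**
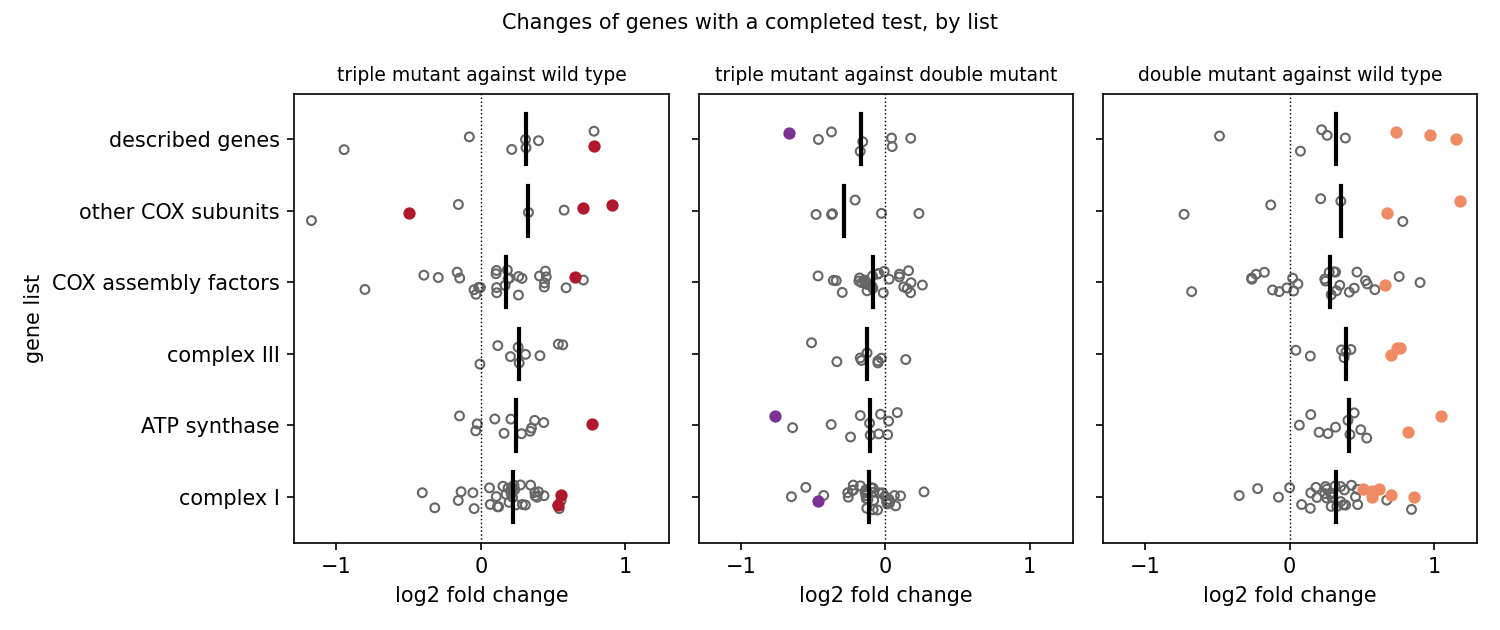
Log2 fold changes of tested genes in the described subunit genes, further cytochrome oxidase (COX) genes and other respiratory complexes, 1 panel per comparison; each point is a gene, filled where its q-value is under 0.05, the black bar is the list's median, and the vertical position within a list is random. In the panel of double mutant against wild type each list has its median above 0, from 0.28 for assembly factors to 0.41 for ATP synthase.

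The genes whose changes lay closest to those of Cox8b, by distance between their log2 fold changes of both mutants against wild type, were Tmsb10, Taf9, Atp5j2, Cbara1 and Hint1. They were chosen among 5916 genes with at least 10 FPKM in every group, at distances of 0.05 to 0.09. The measure rests on 3 group values, so it describes a pattern with few degrees of freedom. Of the 5, Tmsb10, Taf9, Atp5j2 and Hint1 were called higher in the double mutant than in wild type, each at q = 0.0066, and lower in the triple than in the double mutant (q = 0.0114, 0.0066, 0.0066 and 0.0184) in the authors' deposited table. Cbara1 had no call there (q = 0.322 for double mutant against wild type and 0.557 for the triple against the double mutant). The direction of these changes was fixed by how the genes were chosen, so their calls lend the Cox8b pattern no support.

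Several measures moved with the groups. Among protein-coding genes with short transcripts, the lowest of 8 length bins, the median log2 fold change was 0.14 for triple mutant against wild type (2.97% called), -0.05 for the triple against the double mutant (1.35% called) and 0.18 for double mutant against wild type (6.11% called). The transcripts of all 10 members, of 360 to 865 nucleotides, fall in that bin, whose upper end lay between 1447 and 1453 nucleotides, and the part of transcript length in their changes was not tested. The 4 Y-linked genes had a median log2 fold change of 1.05 for triple mutant against wild type, -0.48 for the triple against the double mutant and 1.53 for double mutant against wild type. Ddx3y was called higher in both mutants over wild type, and Uty in the double mutant over wild type. Sex and genotype cannot be told apart in these groups.

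Cell composition could be followed only in part, since in bulk tissue fewer cells of a type and less RNA per cell cannot be told apart. Of 16 cardiomyocyte markers, 14 have no estimate, and the remaining Ckm and Tcap summed to 459 FPKM in the triple mutant, 506 FPKM in the double mutant and 374 FPKM in wild type, with no call in any comparison by Cuffdiff. Their median log2 fold change for double mutant against wild type was 0.40, near the 0.32 of the cytochrome oxidase members, and the part of cardiomyocyte content was not tested. The 15 estimated of 16 endothelial markers summed to 900.3 FPKM in the triple mutant, 1058 FPKM in the double mutant and 1073 FPKM in wild type, and 9 of 12 fibroblast markers to 603 FPKM in the triple mutant, 740.1 FPKM in the double mutant and 637 FPKM in wild type, with no call of either list by Cuffdiff. In the triple mutant 14 of the 15 endothelial markers were below wild type (median log2 fold change -0.33, 5 with an unadjusted p-value under 0.05) and 14 of the 15 below the double mutant (median -0.24, 2 with such a p-value). All 9 estimated fibroblast markers were lower in the triple than in the double mutant (median -0.27, 5 with such a p-value), and 7 of the 9 were lower in the triple mutant than in wild type (median -0.10, 1 with such a p-value). For double mutant against wild type the median was -0.11 over the endothelial markers (2 with such a p-value) and 0.10 over the fibroblast markers (3 with such a p-value). Their part in the differences of the cytochrome oxidase genes was not tested. The 9 smooth muscle and pericyte markers summed to 604 FPKM in the triple mutant, 598 FPKM in the double mutant and 578 FPKM in wild type. In the triple against the double mutant the actin gene Acta2 was called higher (log2 fold change 0.59, q = 0.0066) and the channel gene Kcnj8 lower (-0.58, q = 0.0114) in the authors' deposited table.

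Cox8b is also a gene of brown fat and of skeletal muscle. In the authors' deposited table the brown fat gene Ucp1 was at or below 0.0720 FPKM in every group and Adipoq was listed at 0 in all. The 8 brown fat markers summed to 104 FPKM in the triple mutant, 130 FPKM in the double mutant and 127 FPKM in wild type. Most of each sum is Fabp4, which endothelium also expresses, at 77.1 FPKM in the triple mutant, 102 FPKM in the double mutant and 97.3 FPKM in wild type in the authors' deposited table. Of the other tested brown fat markers, Cidea had a log2 fold change of 0.22, Dio2 of -0.43 and Prdm16 of -0.29 for double mutant against wild type in the authors' deposited table, none of them called. The part of brown fat in the Cox8b difference was not tested. The skeletal myosin genes Myh2 and Myh4 were listed at 0 in every group and Myh1 at or below 0.136 FPKM in the authors' deposited table. The 9 estimated skeletal muscle markers summed to 389 FPKM in the triple mutant, 420 FPKM in the double mutant and 306 FPKM in wild type, almost all of it Ckm, which the heart also expresses.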

How the data were processed

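RNA of 8 ventricle samples was made into stranded total RNA libraries, per the labels' protocols. The submitters' processing notes name STAR 2.5.2, Cuffdiff 2.2.1, Cufflinks 2.2.1, CASAVA 1.8 and the build mm9. Which annotation was used is not given in the sources used here. In the deposited table the authors gave 1 FPKM per gene and group, and for each comparison the log2 fold change, the Cuffdiff statistic (used as a score), a p-value and a q-value, per the file headers. The p-values come from the authors' Cuffdiff test, and no label states which libraries entered it or whether they were separate litters. These p-values rest on that test's own error estimate, which could not be checked because no values per library are given. They do not extend beyond these libraries.

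The deposited log2 fold change matches the log2 ratio of group FPKM without pseudocount (largest difference 4.72e-05). The deposited q-value equals the p-value adjusted by Benjamini and Hochberg's method across the 3 comparisons together (largest difference 5.26e-07), and it is at least 0.0066. That floor goes with the lowest deposited Cuffdiff p-value, 5e-05. Genes marked as having too many fragments (709 genes) were treated as missing. Starts count from 0 in the file (42.5% of spans then equal those of GENCODE M21, against 1.01% otherwise), so start plus 1 is printed.

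Standard errors were taken as log2 fold change over statistic. The p-values correspond to normal scores 1.76 times the statistic (median over tests of intermediate p-value), so these errors are wide. No new test was run. The recomputed adjustment was tested on simulated data. The members and gene lists were chosen with earlier results of these data known. The rule named all members, the called and the 3 highest (wild type) genes of each other oxidase list, called genes of further lists (at most 3 a list) and the 5 genes nearest Cox8b; the text gives a part of these. A gene of ATP synthase assembly (Fmc1) was taken off the assembly factor list. Python 3.11.15, pandas 2.3.3, numpy 2.4.6 and scipy 1.17.1 were used.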

Additional observations from a re-analysis of the deposited data

How the results depend on the processing

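The counts of called members were 1 for triple mutant against wild type, 1 for the triple against the double mutant and 3 for double mutant against wild type. They were the same when q-values were adjusted within each comparison, when only genes with at least 5 FPKM in both groups were kept, and when genes under 1 FPKM were left out before the adjustment within each comparison. In the triple mutant against wild type the count was 2 at a q-value under 0.1, beside 2.75% of all tested genes. It was 0 at a q-value under 0.01, beside 0.554% of all tested genes (by Cuffdiff, with 6 members at an unadjusted p-value under 0.05, Cox4i2 among them as lower). In the double mutant against wild type it was 3 at a q-value under 0.1 and 2 at a q-value under 0.01, where Cox5a lost its call, and for the triple against the double mutant it was 1 at both. The share of all tested genes was not counted at these marks for either comparison, nor under the other settings above. No excess of members can be read from those counts. The 24 log2 fold changes of members moved by at most 0.04 when group sums were equalised, by at most 0.01 when centred on the median gene and by at most 0.28 with a pseudocount of 1 FPKM, and the adjustment within each comparison changed no call of a member. The 6 changes of isoform ratios moved by less than their standard errors with that pseudocount. No paired analysis was possible because the file holds 1 value per group and none per sample, and for the same reason no replicate could be left out. With no depth known, a level of 0 has no stated upper limit, Cox4i1 and the mitochondrially encoded subunits have no estimate, and Cox7a1 had too few fragments to test.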
